A study of Danio rerio with 10 samples.

Results

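The genes described here are those that span at least 200 kb of the zebrafish genome, counted from the first to the last base of the gene's exons in the deposited table. By this rule there were 477 long-span genes among 31388 features, on all 25 chromosomes, with 12 to 29 on each. The rule used no expression value. It set aside 24 rows of this span on chromosome 4 above position 28000000 and 3 single identifiers, and coordinates are those of GRCz10 with Ensembl release 81.

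A gene with a long span owes its length mostly to introns, which are transcribed and then spliced out, so RNA polymerase needs far longer to complete a transcript than its exons would require. In vertebrates many such genes encode cell adhesion molecules, synapse organisers, ion channels, transmitter receptors and axon guidance receptors. Oligodendrocyte progenitor cells (OPCs) carry transmitter receptors and channels, receive synaptic contacts from axons and can divide, whereas oligodendrocytes (OLs) are post-mitotic and make myelin. The authors describe the OPCs sorted from adult zebrafish spinal cord as dormant.

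RNA was sequenced from cells FACsorted from adult spinal cords, with 5 biological replicates for each population and 2000 cells per library. OPCs came from the line Tg(olig2:eGFP), in which GFP is driven by olig2 and also marks some ventral radial glia. OLs came from Tg(mbp:eGFP), in which GFP is driven by the myelin basic protein gene. OPC suspensions passed a finer cell strainer than OL suspensions, so that line, strainer and population cannot be told apart. The age and sex of the fish, and how many fish made up a replicate, were not given in the labels used here, and no injury or compound is named for these libraries.

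The libraries held 11072526 to 11960408 counts in OPCs and 13937725 to 20225093 in OLs. Counts were divided by DESeq2 size factors, which ranged from 0.889 to 1.40, and are called normalized counts below. OPC markers were higher in OPCs, with olig1 at 1243 against 24.0 and OLIG2 at 17171 against 3722 mean normalized counts, while SOX10 was not called. The myelin genes mbpa, plp1b and cldnk were higher in OLs, but they were abundant in OPC libraries too, where mbpa had a mean of 541208 normalized counts against 950384 in OLs. Symbols come from a gene table that matched 463 of the long-span genes. A symbol in capitals is the human-style name, and zebrafish gene copies can share it.

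The long-span genes covered 200 to 811 kb, with a median of 259 kb. Their summed exon length had a median of 4400 bp in 19 exon blocks, against 1797 bp in 6 blocks for the 28510 shorter genes. Exons took a median of 1.62% of the span, against 18.2% in shorter genes. The largest gap between exon blocks took a median of 33.6% of the span. In 24 genes 1 gap took at least 80% of it, so that their span rests on a single join in the gene model, and 1 of these 24 is called below, FOXJ1. The exon blocks of 85 long-span genes overlapped another feature, and reads there cannot be assigned with certainty. Among called genes these include CLSTN2, gria4a, PDE4B, FSTL5 and MYO9A.

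More long-span genes were detected in OPCs than in OLs. With more than 3 counts as the limit, 360 ± 15.8 of the 477 were detected in an OPC library (SD, n = 5, range 339 to 376) and 266 ± 10.4 in an OL library (range 248 to 274). The ranges did not overlap. In total counts every OL library was deeper, but by size factor OL3 (0.895), which had the fewest long-span genes detected, lay below 4 of the 5 OPC libraries. With more than 3 normalized counts as the limit, 351 to 388 were detected in OPCs and 258 to 274 in OLs. As a share, 71.1% to 78.8% of the long-span genes had more than 3 counts in an OPC library and 52.0% to 57.4% in an OL library. Shorter genes of similar exon length gave 64.1% to 70.5% and 58.4% to 61.2%, and all features 44.8% to 49.4% and 42.0% to 43.6%. The filter on low counts, edgeR's filterByExpr, kept 286 of the 477, or 60.0%, against 39.2% of all features and 57.1% of shorter genes with similar exon length. Of the other 191, 6 had no count and 185 were counted at a low level, with a median of 4.73 and a maximum of 106 normalized counts in the higher population. A gene high in 1 population only can pass the filter through that population, so the shares below apply to the 286 tested genes and not to the whole list.

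Of the 286 tested long-span genes, 84 differed between OPCs and OLs in the quasi-likelihood test of edgeR (p-values adjusted over 12292 features by Benjamini-Hochberg, threshold 0.05), 29.4% against 11.8% of all tested features. Of these, 80 were higher in OPCs, 28.0% against 9.01% of all tested features. The other 4 were higher in OLs, 1.40% against 2.82%. For 18 of the 80 no OL library held more than 3 counts, whereas no called gene had so few counts in every OPC library. With the OL libraries of these 18 genes set to a floor of 3 counts each and fitted folds for the rest, the OPC level was at least 2-fold higher for 79 genes, at least 8-fold for 56 and at least 32-fold for 25. In sorted bulk samples, fewer cells carrying a transcript and less of it per cell cannot be told apart.

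**Figure D1:**
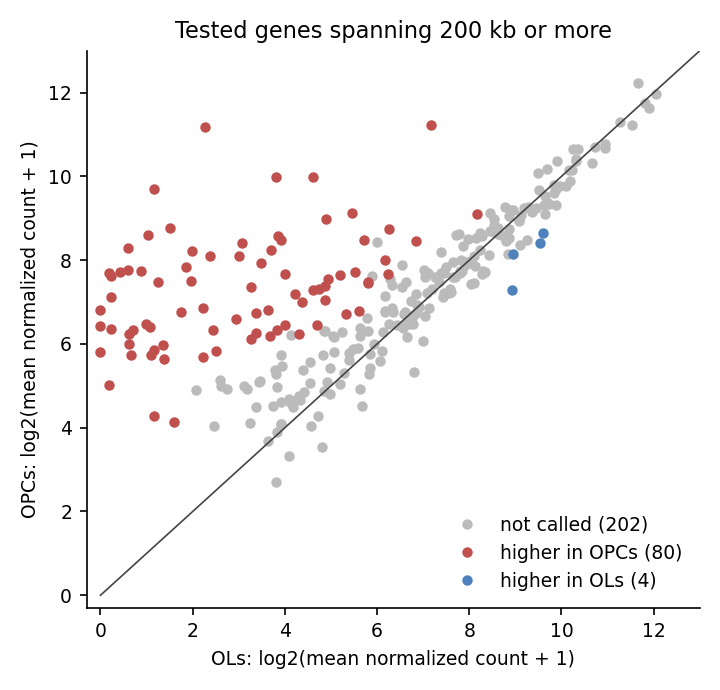
Each point is 1 of the 286 tested long-span genes, plotted by its mean in 5 OL libraries (horizontal axis) and 5 OPC libraries (vertical axis) as log2(mean normalized count + 1), with a line of equal level. The 80 genes higher in OPCs (red) reach down to 0 on the OL axis, and the 4 genes higher in OLs (blue) lie close to the line.

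For 84 tested long-span genes the highest library of one population lay below the lowest of the other, 29.4% against 12.6% of all tested features. Of these, 78 lay higher in OPCs and 6 higher in OLs, and 78 of the 84 were also called. The log2 fold change was above 0 for 198 of the 286, or 69.2%, against 54.5% of all tested features. At an unadjusted p under 0.05 in the same edgeR test, 106 lay higher in OPCs (37.1%, against 15.2% of all tested features) and 12 in OLs (4.20% against 8.43%). The genes higher in OPCs had a median fitted log2 fold change of 4.58, against 4.07 for all features higher in OPCs. With genes at the floor set to their bound, the medians were 4.24 and 3.77.

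Long-span genes also have a greater summed exon length, which collects more reads per transcript, so each was set beside tested genes within 10% of its exon length and under 200 kb of span. Of these comparison genes, 10.8% were higher in OPCs and 1.91% higher in OLs, with each long-span gene weighted equally. The median log2 fold change was 0.44 for long-span genes and 0.06 for all tested features. For comparison genes the median was taken for each long-span gene in turn and then averaged, which gave 0.15. Medians of comparison genes for fold change or level below are averaged in this way. With the exon length within 20% and a similar mean count, 11.7% of the comparison genes were higher in OPCs and their averaged median was 0.28. Beside genes of similar exon length under 50 kb of span, 8.74% were higher in OPCs.

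These shares depended on the filter. With a minimum of 10 counts in each library, 174 long-span genes remained, of which 19 had higher levels in OPCs and 3 in OLs. The OPC share was 10.9%, against 3.65% of comparison genes, and the OL share 1.72%, against 1.22%. The median log2 fold change of the long-span genes minus the averaged median of the comparison genes was then -0.02, in place of 0.30. This filter removes genes near 0 in OLs: of the 112 genes that dropped out, 60 had been among the genes higher in OPCs and none among those higher in OLs.

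The share of genes higher in OPCs grew in steps with the span. It was 7.22% under 10 kb (3739 genes tested), 7.74% from 10 to 50 kb (5945), 13.4% from 50 to 100 kb (1373), 15.8% from 100 to 200 kb (679) and 28.0% from 200 kb (286). The share higher in OLs fell over the same classes, from 3.37% to 1.40%. Median log2 fold changes were 0.00, 0.04, 0.20, 0.24 and 0.44 in this order. Median exon length rose over the same classes, at 1557, 2666, 4161, 4424 and 5032.5 bp, so the classes by themselves do not separate span from exon length. Across the 12022 tested features not set aside by the rule, the Spearman coefficient of the log2 fold change was 0.119 with span and 0.148 with exon length. The fall in the OL share depended on the processing. Without the filter that share was 1.35%, 1.63%, 1.45%, 1.77% and 1.27%, and scaled by library size alone 1.18%, 0.875%, 0.437%, 1.03% and 1.05%. The OPC share still rose in both, from 5.10% to 26.1% and from 12.9% to 33.9%. These are descriptions across genes, which are not independent replicates.

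**Figure D2:**
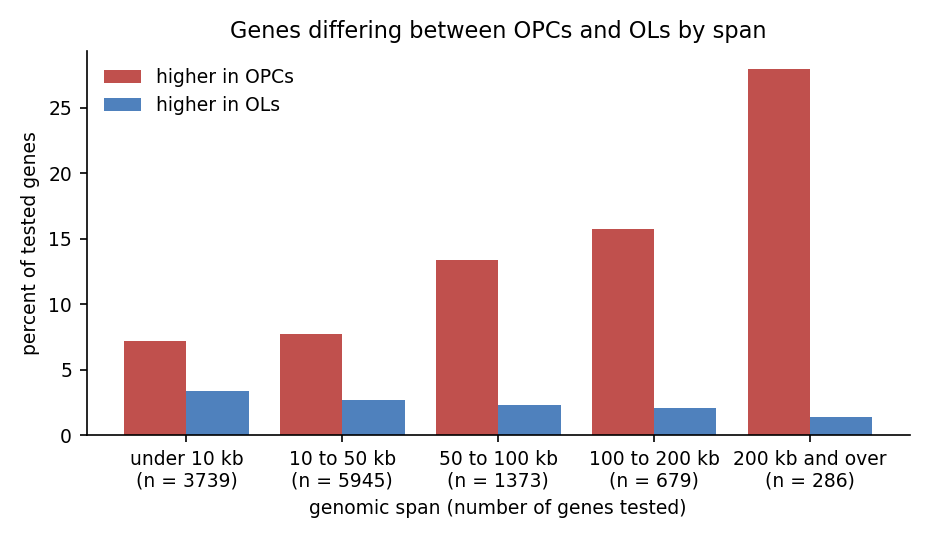
Bars give the percent of tested genes higher in OPCs (red) and higher in OLs (blue) in 5 classes of genomic span, with the number of genes tested under each class. The red bars rise from 7.22% under 10 kb to 28.0% at 200 kb and over, and the blue bars go from 3.37% to 1.40%.

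The steps went on within the long-span genes. From 200 to 250 kb, 28 of 126 tested genes were higher in OPCs (22.2%), from 250 to 300 kb 16 of 59 (27.1%), from 300 to 400 kb 20 of 61 (32.8%) and from 400 kb 16 of 40 (40.0%). The median log2 fold changes were 0.37, 0.30, 0.46 and 1.78 in this order, so the median did not rise at each step and was far higher only from 400 kb. Across the 286 genes the rank correlation of the log2 fold change with span was nonetheless weak, with a Spearman coefficient of 0.123, and that with exon length was 0.144. All points share the same 10 libraries.

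Exon length alone did not order the long-span genes in the same way. Under 2000 bp of exons, 1 of 20 was higher in OPCs (5.00%), against 6.61% of shorter genes. From 2000 to 4000 bp it was 21.8% against 9.03%, from 4000 to 6000 bp 39.4% against 11.5%, from 6000 to 9000 bp 30.2% against 11.9%, and from 9000 bp 28.9% against 14.0%. By mean level over all libraries, the share peaked at 30 to 100 normalized counts, with 36 of 82 genes (43.9%) against 14.0% of shorter genes. From 300 to 1000 normalized counts, 5 of 56 long-span genes were higher in OPCs (8.93%), against 5.40% of shorter genes. All 4 long-span genes higher in OLs lay in this class (7.14%, against 3.32% of shorter genes). The median log2 fold changes there were close, -0.043 in long-span and -0.045 in shorter genes. Among the 20 long-span genes of at least 1000 normalized counts, 2 were higher in OPCs and 0 higher in OLs. Of the shorter genes at that level, 3.07% were higher in OPCs and 9.81% higher in OLs.

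In each library the long-span genes took less than 2% of the counts. Their share was 0.847% ± 0.161 in OPCs (SD, n = 5, range 0.726% to 1.12%) and 0.543% ± 0.0334 in OLs (range 0.503% to 0.595%), and the populations did not overlap. Without the features that took over 1% of all counts, the shares were 1.27% and 0.928%. The median level of the tested long-span genes, as log2(normalized count + 1), was 6.82, 7.23, 7.05, 7.31 and 7.60 in OPC1 to OPC5. It was 5.91, 6.09, 6.003, 6.29 and 5.97 in OL1 to OL5. The averaged medians of comparison genes differed less, with 7.33 to 7.73 in OPCs and 7.17 to 7.27 in OLs.

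**Figure D3:**
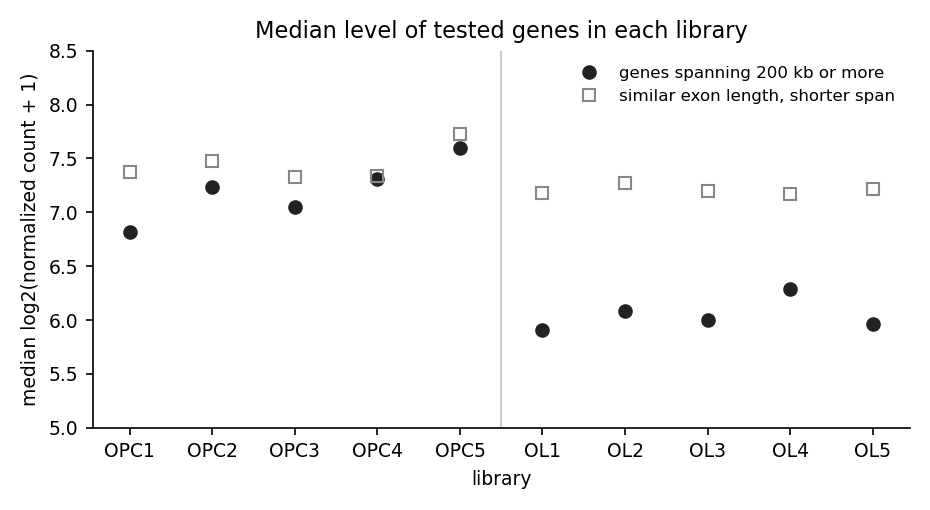
Circles give, for each of the 5 OPC and 5 OL libraries, the median log2(normalized count + 1) of the tested long-span genes. Squares give genes with similar exon length and shorter span, as the median for each long-span gene, averaged over these. In OPCs the circles lie 0.03 to 0.56 below the squares, and in OLs 0.88 to 1.27 below them.

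The OPC libraries did not hold the OPC-high genes evenly. Among the 80 genes, OPC1 was the lowest OPC library for 62 and OPC4 the highest for 44. The median difference to the other OPC libraries was -1.35 in OPC1 and 0.73 in OPC4 on the log2 scale. Of a list of 13 neuronal genes, 12 were matched to 14 features, 7 were tested and 5 were higher in OPCs: SNAP25, SYT1, both copies of STMN2 and GAD1. The summed normalized counts of these 5 were 549, 1826, 1688, 2988 and 1490 in OPC1 to OPC5 and 2.82 to 78.1 in OLs. OPC1 was thus lowest and OPC4 highest here too, but the sum came mostly from SNAP25 (303, 1117, 1140, 1992 and 755 in OPC1 to OPC5). Both copies of STMN2 were also lowest in OPC1 and highest in OPC4, whereas SYT1 was lowest in OPC3 and GAD1 highest in OPC5. Summed over the whole list, the level was 6963 to 9624 in OPCs and 6480 to 8214 in OLs, mostly from ELAVL3 and ELAVL4, which were not called. The vesicular glutamate transporter SLC17A6 (both copies) and the glycine transporter SLC6A5 had at most 3 counts in every library. Among the tested OPC markers, olig1 was also lowest in OPC1 and highest in OPC4, with 697, 1137, 1307, 1681 and 1391 normalized counts in OPC1 to OPC5. OLIG2 was lowest in OPC1 but highest in OPC5, and SOX10 was lowest in OPC2 and highest in OPC5.

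Of the radial glia list, 7 of 7 genes were matched to 11 features, 8 of them tested. FABP7 (15017 ± 5655 normalized counts against 442 ± 245, ENSDARG00000007697), SLC1A2 (1422 ± 636 against 53.0 ± 55.3, ENSDARG00000102453) and her4.1 (205 ± 160.5 against 0.171 ± 0.382) were higher in OPCs, SLC1A3 was higher in OLs, and GFAP had 97.6 ± 70.0 normalized counts in OPCs and 34.5 ± 15.2 in OLs (adjusted p = 0.110, edgeR). The whole radial glia list summed to 113056 to 155349 in OPCs and 96691 to 147874 in OLs, mostly from the copies of GLUL, which were not called. Of the cell cycle genes, mki67 (36.4 ± 29.8 against 0.879 ± 1.32), TOP2A and CDK1 did not pass the filter and PCNA was not called. Of 7 microglial and leukocyte genes 6 were matched, and the tested ones, ptprc and apoeb, were not called, while the 3 matched endothelial and blood genes summed to at most 19.7 in any library. The part of neurons, radial glia and dividing cells in the values of the long-span genes was not tested.

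Within a population, the long-span genes of at least 50 normalized counts varied more between OPC libraries than comparison genes did, with a median SD of 0.650 against 0.553 on the log2 scale. This difference of 0.0978 was 0.0364 without OPC1 and 0.0635 without OPC5. In OLs the values were 0.326 and 0.355.

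Adhesion molecules and synapse organisers were the best represented group. This family held 59 of the 477 long-span genes, of which 41 were tested, 22 were higher in OPCs (53.7%) and 1 was higher in OLs. Among shorter genes of the family, 49 of 100 tested were higher in OPCs (49.0%). The median log2 fold change was 2.57 in the long-span and 2.10 in the shorter genes of the family. Families were assigned by gene symbol. Apart from the genes picked by the rule given with the processing, family members named here were chosen after their values were seen.

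CLSTN2 (ENSDARG00000060637, chromosome 2, 39142700 to 39590028, plus strand, 18 exon blocks) encodes a calsyntenin of the postsynaptic membrane. It had 373, 1593, 597, 826 and 749 normalized counts in OPC1 to OPC5 and 1.43, 1.71, 0, 2.96 and 0 in OL1 to OL5. Every OPC library thus lay far above every OL library. With OL libraries set to a floor of 3 counts each, the OPC level was at least 299-fold higher (edgeR, adjusted p = 1.86e-06). Its exon blocks overlap another feature.

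cntnap2a (ENSDARG00000058969, chromosome 24, 17276384 to 17747906, minus strand) encodes a neurexin-like protein that clusters potassium channels beside the node of Ranvier. It had 13.8, 136, 84.4, 88.8 and 100.0 normalized counts in OPC1 to OPC5 and no count in any of the 5 OL libraries. Against the same floor the OPC level was at least 30.6-fold higher (edgeR, adjusted p = 0.000404). Its relative cntnap3 was at least 19.9-fold higher in OPCs. The presynaptic neurexins nrxn1a (434 ± 238 against 1.85 ± 2.12, SD, n = 5 each) and nrxn3b (74.9 ± 46.2 against 0.529 ± 0.774) were higher in OPCs. Neurexin copies nrxn2a and NRXN3 had log2 fold changes of 2.04 and 0.62 and were not called.

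Among postsynaptic partners of neurexins, NLGN3 had 557 ± 241 normalized counts in OPCs and 43.2 ± 31.3 in OLs (log2 fold change 3.69). The immunoglobulin-type adhesion molecules NCAM2 and DSCAM were higher in OPCs by 5.28 and 4.82 on the log2 scale, and the cadherin CDH13 by 6.42. Genes with receptor phosphatase symbols were split. PTPRN2 was higher in OPCs at 1018 ± 466 against 12.9 ± 8.74, and so was 1 copy each of PTPRU (log2 fold change 4.54) and PTPRG (3.47). The other copies of PTPRU (1.19) and PTPRG (0.42) were not called, nor were PTPRF (-0.20) and ptprsa (-0.26).

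CADM4 (ENSDARG00000040291, chromosome 16, 24298046 to 24603008, minus strand) encodes an adhesion molecule of glia at the axon contact. It was the long-span gene with the highest level per kb of exon in both populations, at 1691 normalized counts per kb in OPCs and 1138 in OLs. It had 3853, 4221, 4019, 5604 and 6384 normalized counts in OPC1 to OPC5 and 2313, 3309, 2973, 3149 and 4463 in OL1 to OL5, so that OL5 lay above OPC1 to OPC3. The log2 fold change was 0.57 and was not called (adjusted p = 0.0852, edgeR). It passed the threshold without OL5 (adjusted p = 0.0286) and when scaled by library size alone (log2 fold change 0.88, adjusted p = 0.0115).

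The neural adhesion gene ntm (ENSDARG00000018065, chromosome 10, 30077178 to 30703636, plus strand), which encodes neurotrimin, went the other way. It had 148, 253, 151, 152 and 67.3 normalized counts in OPC1 to OPC5 and 309, 428, 541, 458 and 678 in OL1 to OL5. All OL libraries lay above all OPC libraries (log2 fold change -1.64, SE 0.317, adjusted p = 0.00340, edgeR). CTNNA2, a catenin that links cadherins to actin in neurons, had the longest span, 811 kb, and was not called (log2 fold change 0.15, adjusted p = 0.927, edgeR).

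**Figure D4:**
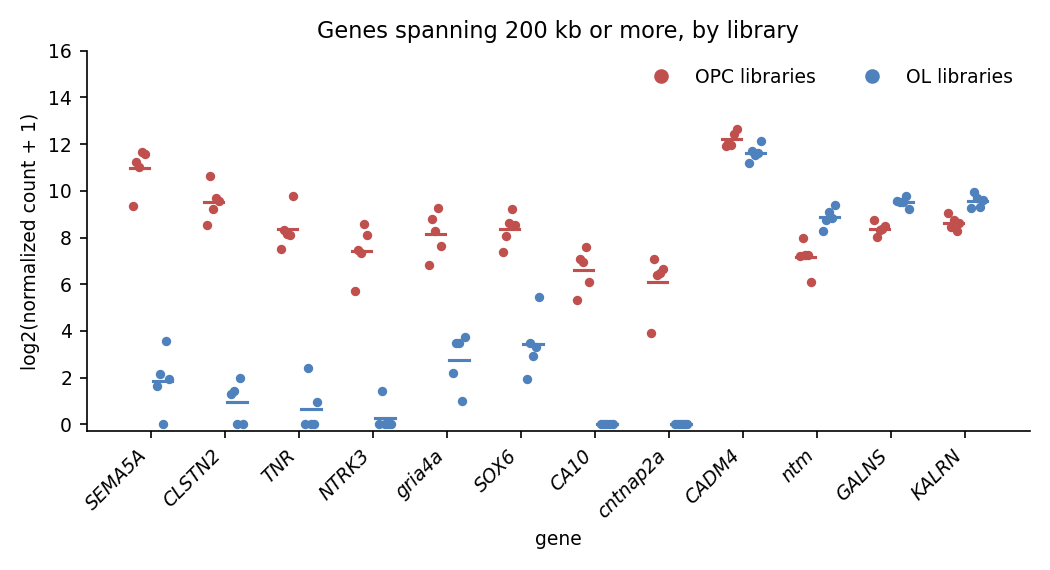
Points show log2(normalized count + 1) in the 5 OPC (red) and 5 OL (blue) libraries for 12 long-span genes, and bars mark the mean of each population. SEMA5A, CLSTN2, TNR, NTRK3, gria4a, SOX6, CA10 and cntnap2a are low in OLs and lie higher in every OPC library, CADM4 overlaps between populations, and ntm, GALNS and KALRN are higher in OLs.

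Ion channels and transmitter receptors held 31 long-span genes, but 8 passed the filter, and 5 of these 8 were higher in OPCs (62.5%) with none higher in OLs. Among 399 shorter genes of the family 60 were tested, and 22 of these 60 were higher in OPCs (36.7%). A gene high in OPCs alone can pass the filter through them, so both shares hold for tested genes only. The AMPA receptor subunit gria4a (ENSDARG00000037496, chromosome 15, 44475744 to 44790596, minus strand) had 112, 446, 308, 619 and 199 normalized counts in OPC1 to OPC5 and 3.57, 10.2, 10.1, 0.988 and 12.2 in OL1 to OL5. No OL library came near an OPC library (log2 fold change 5.50, SE 0.615, adjusted p = 6.32e-05, edgeR), though its exon blocks overlap another feature.

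GRID1 (ENSDARG00000044161, chromosome 12, 12074081 to 12796367, plus strand, 722 kb) encodes a delta-type glutamate receptor that binds synapse organisers. It had 50.03, 49.2, 66.4, 85.5 and 187 normalized counts in OPC1 to OPC5, and 1.43, 3.42, 0, 0 and 0 in OL1 to OL5. OPC5 stood above the other OPC libraries, and all 5 lay above the OLs (log2 fold change 6.24, adjusted p = 0.000284, edgeR). The calcium-activated potassium channel KCNMA1 (log2 fold change 5.27), the kainate receptor subunit GRIK4 (4.81) and the potassium channel partner DPP6 (3.75) were also higher in OPCs. The calcium release channel ITPR1 (-0.31) and the sodium-calcium exchanger SLC8A2 (0.06) were not called.

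Axon guidance ligands and receptors held 14 long-span genes, and 5 of the 8 tested were higher in OPCs (62.5%), against 9 of 36 tested shorter genes. The family had 87 shorter genes in all, and the same limit of the filter applies. SEMA5A (ENSDARG00000058821, chromosome 24, 16249108 to 16562520, plus strand), a membrane-bound semaphorin, had 646, 2418, 2107, 3274 and 3078 normalized counts in OPC1 to OPC5. In OL1 to OL5 it had 2.14, 3.42, 0, 10.9 and 2.82. OPC1 was again the lowest OPC library and still stood far above the OLs (log2 fold change 9.19, SE 0.652, adjusted p = 3.02e-06, edgeR).

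Both copies of NEO1, a netrin and RGM receptor, were higher in OPCs. Copy ENSDARG00000075100, whose exon blocks overlap another feature, had 31.3 ± 18.5 normalized counts against 0.143 ± 0.319. With OL libraries set to a floor of 3 counts each, its level was at least 11.3-fold higher in OPCs. Copy ENSDARG00000102855 had a log2 fold change of 3.81. The semaphorin sema6bb (3.05) and the semaphorin receptor PLXNA3 (2.98) were higher as well, PLXNA3 at 16.7 ± 9.69 normalized counts against 2.02 ± 2.62. The call of PLXNA3 was lost when OL1, OL2, OL3, OL4, OPC3 or OPC4 was left out. PLXNA4 (0.82), ROBO3 (0.40) and SLIT3 (0.37) were not called.

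Signalling enzymes, receptors and scaffolds held 35 long-span genes, of which 22 were tested, 10 were higher in OPCs (45.5%) and 1 was higher in OLs. Among shorter genes it was 30 of 142 in OPCs (21.1%). NTRK3 (ENSDARG00000086214, chromosome 7, 14386931 to 14692929, plus strand) encodes the receptor for neurotrophin-3. It had 51.1, 173, 162, 382 and 274 normalized counts in OPC1 to OPC5 and 0, 1.71, 0, 0 and 0 in OL1 to OL5. The OPC level was at least 75.3-fold higher (edgeR, adjusted p = 2.18e-05).

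FGF13, an intracellular FGF homologue that binds sodium channels, was higher in OPCs by 7.73 on the log2 scale, the cyclic AMP phosphodiesterase PDE4B by 4.62 and the postsynaptic scaffold DLG2 by 1.45. In contrast, the related scaffolds dlg1a and MAGI3 had log2 fold changes of -0.36 and -0.10 and were not called. The neuregulin receptor ERBB4 (0.98, adjusted p = 0.167, edgeR) was not called either. KALRN (ENSDARG00000104119, chromosome 9, 4188188 to 4467522, plus strand), a guanine nucleotide exchange factor that acts on small GTPases, had 535, 348, 433, 306 and 391 normalized counts in OPC1 to OPC5 and 623, 1003, 832, 639 and 783 in OL1 to OL5. The populations did not overlap (log2 fold change -0.95, SE 0.197, adjusted p = 0.00580, edgeR).

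Transcription and RNA-binding regulators had the lowest share of the 6 families. Of 28 long-span genes 18 were tested and 4 were higher in OPCs (22.2%), against 44 of 266 shorter genes (16.5%). SOX6 (ENSDARG00000015536, chromosome 7, 26980282 to 27181168, plus strand), which in mouse holds OPCs in the undifferentiated state, had 165, 264, 397, 603 and 365 normalized counts in OPC1 to OPC5 and 2.86, 10.2, 6.70, 8.89 and 42.3 in OL1 to OL5. OL5 stood above the other OLs and below every OPC library (log2 fold change 4.66, SE 0.633, adjusted p = 0.000252, edgeR). The splicing regulator RBFOX1 was at least 28.7-fold higher in OPCs. The chromatin and transcription regulators KMT2C (0.68), NFIA (0.53), NFIX (-0.21) and NCOA2 (-0.31) were not called.

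Of 27 cytoskeleton and extracellular matrix genes 13 were tested and 4 were higher in OPCs (30.8%), against 20 of 120 shorter genes (16.7%). TNR (ENSDARG00000020771, chromosome 2, 35258307 to 35491658, plus strand) encodes tenascin-R, a matrix glycoprotein of the nervous system. It had 182, 320.0, 280.1, 272 and 888 normalized counts in OPC1 to OPC5 and 0, 4.27, 0, 0 and 0.939 in OL1 to OL5. All OPC libraries lay above all OLs (log2 fold change 8.34, SE 0.786, adjusted p = 2.05e-05, edgeR). The large linker proteins dmd (-0.11), macf1a (-0.30) and SYNE1 (0.30) were not called.

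**Figure D5:**
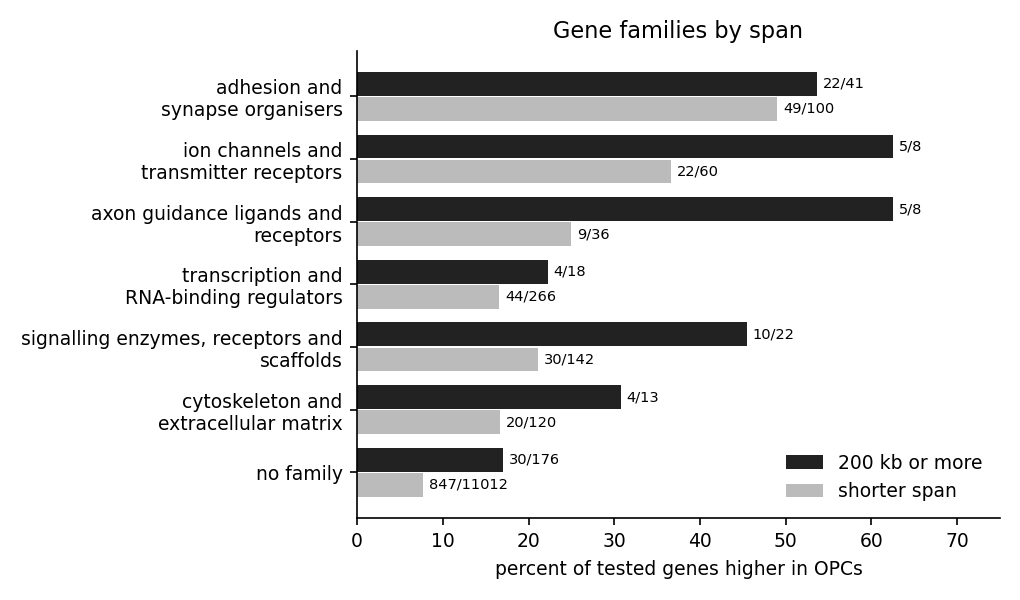
Bars give the percent of tested genes higher in OPCs in 6 gene families and in genes of no family, for spans of at least 200 kb (black) and shorter spans (grey), with the number higher over the number tested. The bars of adhesion genes are close, 53.7% and 49.0%, while those of genes of no family are 17.0% and 7.69%.

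Taking the 6 families as 1 group, 50 of 110 tested long-span genes were higher in OPCs (45.5%), against 174 of 724 shorter genes (24.0%). Families held 110 of the 286 tested long-span genes but 724 of 11736 shorter ones. Long-span genes of no family were higher in OPCs in 30 of 176 cases (17.0%), against 847 of 11012 (7.69%).

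Among the genes of no family, CA10 (ENSDARG00000052644, chromosome 12, 21105913 to 21428583, plus strand) encodes a carbonic anhydrase relative without enzyme activity that binds neurexins. It had 39.4, 134, 123, 191 and 67.3 normalized counts in OPC1 to OPC5 and no count in any OL library. Set beside that floor, the OPC level was at least 40.1-fold higher (edgeR, adjusted p = 0.000143). TAFA3, a secreted chemokine-like protein, had 53.2 to 356 in OPCs and at most 1 count in an OL library, at least 74.9-fold higher (adjusted p = 7.28e-06, edgeR). OLFM2, a secreted olfactomedin, was at least 112-fold higher, and the adenylate kinase AK5 at least 50.2-fold. For cyp4t8, a cytochrome P450 gene that was at least 71.2-fold higher, 1 gap took 79.2% of the span.

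CASK (ENSDARG00000059809, chromosome 9, 33555035 to 33799786) encodes a scaffold that binds neurexins inside the cell. Chosen after its values were seen, it had the smallest adjusted p of the long-span genes. It had 1881, 2763, 2202, 2596 and 2456 normalized counts in OPC1 to OPC5 and 111, 155, 116, 179 and 152 in OL1 to OL5. Both populations were narrow and far apart (log2 fold change 4.06, SE 0.192, adjusted p = 2.79e-07, edgeR). The ciliary neurotrophic factor receptor cntfr had 1021 ± 648 in OPCs and 23.4 ± 17.9 in OLs (log2 fold change 5.41).

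GALNS (ENSDARG00000051853, chromosome 7, 55120260 to 55332064, minus strand), a lysosomal sulfatase, was higher in OLs. It had 433, 257, 320.0, 324 and 355 normalized counts in OPC1 to OPC5 and 764, 724, 737, 866 and 605 in OL1 to OL5, without overlap (log2 fold change -1.13, SE 0.174, adjusted p = 0.000652, edgeR). VPS8, an endosomal tethering protein, was the remaining gene higher in OLs (log2 fold change -0.80, adjusted p = 0.0314, edgeR). Its call was lost when OL2, OL3, OL5, OPC3 or OPC4 was left out, and its adjusted p was 0.175 when scaled by library size alone.

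Several of the most abundant long-span genes were not called. STAU2, an RNA-binding protein that moves mRNA along processes, had 4021 ± 388 normalized counts in OPCs and 4218 ± 399 in OLs (log2 fold change -0.07, adjusted p = 0.805, edgeR). The matrix protein gene EDIL3 had 3440 ± 842 and 3614 ± 963 (-0.07). The adenosine kinase ADK had a log2 fold change of -0.32 (adjusted p = 0.170, edgeR), although its populations did not overlap, and the nuclease SND1 one of -0.26. NUCB1, a calcium-binding protein of the Golgi, had a log2 fold change of 0.29.

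The remaining genes among the 5 longest were not called: sult2st3, a sulfotransferase (711 kb, log2 fold change -0.56), nrxn2a (705 kb, 2.04) and pard3bb, a polarity protein (639 kb, 0.06). At the limit of the rule, si:dkey-4c15.14 (200173 bp, log2 fold change -0.94, adjusted p = 0.0837, edgeR) and FOXP2 (200598 bp, -0.20) lay just inside. The tight junction scaffold tjp1b (199837 bp, 0.12) and DIP2C (199768 bp, 0.20) lay just outside, and none of the 4 was called. FOXP2, a transcription factor, was called without OPC5 (log2 fold change -0.58, adjusted p = 0.0122, edgeR).

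Gene copies that share a symbol could be compared with each other. Among the long-span genes 25 symbols were held by 2 genes each, and both copies were tested for 9 of them. Both were higher in OPCs for NEO1 and NTRK3 and neither was called for KLHL29. For 6 symbols 1 copy was higher and the other was not called: CAMTA1, LRP1, MSI2, NCAM1, PTPRG and PTPRU. The adhesion molecule NCAM1 had log2 fold changes of 5.87 and 0.42 in its copies, and the endocytic receptor LRP1 of 2.80 and -0.13. The difference between copies was not tested, and reads that fit both copies may have been lost or split.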

How the data were processed

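Full-length cDNA from 2000 sorted cells was amplified with 12 PCR cycles and sequenced as 75 bp single-end reads. Per the labels and the methods, the authors aligned reads with GSNAP to the GRCz10 assembly and counted them per Ensembl release 81 gene with featureCounts 1.5.2, after bcl2fastq 2.17.1.14. The deposited values are raw read counts per gene in 10 libraries, with no normalization. The use of strand and the treatment of reads that map to several genes are not given in the sources used here, and PCR copies are not independent molecules, so count floors cover counting error only.

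Span, exon length and exon blocks were read from the coordinates in the count table. Features kept by filterByExpr (12292) were scaled with DESeq2 1.42.0 size factors and tested with edgeR 4.0.16 (quasi-likelihood, Benjamini-Hochberg adjustment, threshold 0.05) in R 4.3.3. Tables were made in Python 3.11.15. Library pairs of 1 population differed by more than counting noise (chi-square per degree of freedom at least 28.6 over 20 pairs), so none was counted as a copy. P-values measure the spread between these libraries.

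Genes were named by fixed rules: among called genes that averaged 50 normalized counts or more in the higher population, the 8 largest log2 fold changes in each direction (4 existed in OLs). The rules also took the 5 highest per kb of exon in each population, the 5 longest and the 2 on each side of the limit. In each family they took the called long-span gene and the called shorter gene with the smallest p. These shorter genes, with fitted log2 fold changes, were LRRTM2 (8.82), GRIA2 (9.66), draxina (7.79), MSI1 (8.34), CAMK2N2 (5.39) and fmn2b (5.26), all higher in OPCs. LRRTM2 and MSI1 had at most 1 count in an OL library, and exon blocks of GRIA2 overlap another feature. The members and the lists were chosen with earlier results of these data known. Alternatives covered normalization, filter, test (DESeq2, limma 3.58.1 voom), replicate block, threshold, span limit, comparison genes and leaving out each library. Gene models with 1 large gap were left out as an alternative chosen after seeing the data. No reference sequence was used here, and no sequence is shown. The steps were tested on simulated counts with 200 features changed 4-fold. The test called 133 features, of which 129 were among the 200. True changes of this size were thus missed, and a gene that was not called may still differ.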

Additional observations from a re-analysis of the deposited data

Results flagged for a closer look

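Of 62 groups of 5 libraries examined, 9 held a library far from the other 4 (past Dixon's critical value at 95%). Chance at 1 in 20 would give 3.1 in independent groups, but these groups share the same 10 libraries, so an excess cannot be read from this. OPC5 stood apart in 4 of the 9: it was high for GRID1 (187 normalized counts), FOXP2 (1676) and TNR (888), and low for ADK (1891). STAU2 was high in OPC2 (4694), and so was MSI1 (224), a shorter RNA-binding gene. SOX6 was high in OL5 (42.3), and tjp1b, a shorter gene, was low in OL1 (605). The median of the long-span genes minus the averaged median of genes with similar exon length was -0.88 on the log2 scale in OL4. It was lower in the other OL libraries, down to -1.27.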

How the results depend on the processing

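No called long-span gene changed sign in any alternative fit, and 72 of the 84 were called in all 10 fits that left out 1 library (the others were GRIP1, iqsec3a, adam19a, LRP8, SRGAP3, VPS8, tenm3, IL1RAPL1, PLXNA3, MGAT4B, raraa and pleca). The number called was 77 to 104 in these fits, with 73 to 101 higher in OPCs and 3 to 10 higher in OLs (10 without OPC5). The median difference, that is the median log2 fold change minus the averaged median of genes of similar exon length, was 0.30 to 0.50. It was highest without OL2 (0.50). The excess in the share higher in OPCs was 15.1 to 20.1 percentage points, the ratio of OPC to OL shares of counts 1.43 to 1.62, and the difference in spread in OPCs 0.0364 to 0.109.

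With at least 10 counts in every library, 22 genes were called, 19 higher in OPCs, the median difference was -0.023 and the excess 7.27 percentage points, since genes near 0 in OLs drop out. Without a filter 129 were called, 123 higher in OPCs, with a median difference of 0.90. Higher in OLs were 7 genes by DESeq2 (2.45%, against 3.45% of comparison genes) and 14 by limma voom (4.90% against 4.39%). Of all 12292 tested features, 589 and 638 were higher in OLs in these fits. The lower OL share of long-span genes thus depended on the test, and the cause was not tested. At a span of at least 150 kb, 134 were called (127 in OPCs, 7 in OLs), and at 300 kb, 37 (36 and 1, median difference 0.77). Scaled by library size alone, the median of all features was 0.36 and 93.9% of all calls were higher in OPCs, against 97 of 100 called long-span genes. TMM gave 84 calls. Among single genes, SND1 was called by limma voom alone (log2 fold change -0.67, adjusted p = 0.0262), si:dkey-4c15.14 by DESeq2 (adjusted p = 0.0346), limma voom (0.0289) and without OPC5 (0.0459), and CADM4 with the replicate block (0.0215), while VPS8 was lost with the block (0.0734) and with at least 10 counts in every library (0.0617).

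Same-numbered libraries correlated weakly (mean r 0.068, range 0.024 to 0.104), but more than libraries of different number (mean -0.017, range -0.102 to 0.073). In each population 4 of 5 libraries correlated best with their own number in the other. Because the populations came from different fish lines, the numbers were not taken to pair the samples in the main test. Whether same-numbered libraries shared a batch was not tested. With the replicate block 78 long-span genes were called, 73 of them shared with the 84. With the block PLXNA3 was not called (adjusted p = 0.0754), nor was it without a filter (0.0785). Whether depth limited the 191 genes that were not tested was not tested.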

Other observations

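Long-span genes can hold other genes inside their introns. Of the 477, 227 held at least 1 other feature, and 832 shorter features lay inside a long-span gene. Of the 237 of these that were tested, 17 were higher in OPCs (7.17%) and 5 higher in OLs (2.11%), against 9.01% and 2.82% of all tested features. Among tested features inside a long-span gene that was itself higher in OPCs, 0 of 6 were higher in OPCs (edgeR, adjusted p under 0.05). Inside long-span genes that were not called it was 12 of 145 (8.28%).

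Some other OPC-high long-span genes of no family are named here after their values were seen. The exchange factor VAV2 averaged 163 normalized counts in OPCs against 8.69 in OLs (log2 fold change 4.21), PREX2 averaged 178 against 1.38 (6.97), and the Golgi GTPase RAB6B 430.3 against 75.4 (2.51). The ciliogenesis factor FOXJ1 was at least 20.5-fold higher in OPCs, but 91.8% of its span is 1 gap between exon blocks.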
